A study of Mus musculus with 27 samples.

Results

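Glycolysis and HIF-1 response genes were followed in mouse bone marrow-derived macrophages (BMDM) given TLR ligands. The 9 genes are Hif1a, Slc2a1, Hk2, Pfkfb3, Pfkp, Ldha, Pgk1, Eno1 and Vegfa. They were chosen by name, as every probe whose gene name in the array file equals 1 of them, which gave 15 of the 55681 probes and 9 of the 34844 gene names on the array. The rule itself used no measured value, though the 9 genes were named with earlier results of these data known. Each gene is described by its probe with the highest mean signal, in the log2 values that the authors deposited. These 9 probes were well above background and unsaturated on all 27 arrays. A second probe of Hif1a was not above background often enough to be tested.

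The cells came from marrow of female C57BL/6 mice of 6 to 8 weeks, differentiated in medium conditioned by L929 cells, and no group carried a genetic change. Naïve cells received no ligand. Acute cells received 1 ligand for 4 h, and re-stimulated cells received the ligand for 24 h, were washed, and received the same ligand again for 4 h. The ligands were LPS (TLR4) at 100 ng/ml, Pam3CSK4 (TLR2) at 100 ng/ml, Poly(I:C) (TLR3) at 10 µg/ml and CpG DNA (TLR9), for which the labels give 100 µM and the study's methods a lower dose. Each of the 9 groups held 3 replicates, of which re-stimulated LPS and acute Pam3CSK4 have 2 with deposited values. The labels number the replicates and the methods call them biological, so p-values measure the spread between these cultures. The labels name no mock pre-treatment of naïve or acute cells, and no group received the first 24 h of ligand alone. Against naïve or acute cells, the second dose of re-stimulated cells cannot therefore be told apart from the first dose and from time in culture.

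Hif1a encodes the oxygen-regulated subunit of HIF-1, a transcription factor whose protein is destroyed in oxygenated cells by prolyl hydroxylation and which binds hypoxia response elements with the core ACGTG or GCGTG. TLR signalling in macrophages is known to raise Hif1a transcripts through NF-κB and to shift cells towards glycolysis. Among the other genes, Slc2a1 (GLUT1) brings glucose in, Hk2 phosphorylates it, and Pfkp is the platelet-type phosphofructokinase. Pfkfb3 makes fructose 2,6-bisphosphate, which activates phosphofructokinase. Pgk1 and Eno1 act further down the pathway, Ldha turns pyruvate into lactate, and Vegfa is the secreted angiogenic factor that HIF-1 raises in hypoxia.

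The bases before the transcription start of 5 of the genes are shown because these genes took different courses below. Hif1a and Slc2a1 were higher after re-stimulation with every ligand, Ldha and Vegfa were lower with acute LPS, and Pfkp was higher with it. Acute LPS lay on slides of its own, and the call of Ldha was lost with median scaling, as given below. The sequences are RefSeq promoters of GRCm38.p6, the 250 bases before the most upstream start of each gene, read 5′ to 3′ on the gene's strand. They lie at chr12:73907617-73907866 (+ strand) for Hif1a, chr4:119108495-119108744 (+ strand) for Slc2a1, chr7:46845554-46845803 (+ strand) for Ldha, chr13:6648772-6649021 (- strand) for Pfkp and chr17:46032378-46032627 (- strand) for Vegfa. Capitals mark ACGTG or GCGTG on either strand and, in Vegfa, a match to the NF-κB consensus.
Hif1a: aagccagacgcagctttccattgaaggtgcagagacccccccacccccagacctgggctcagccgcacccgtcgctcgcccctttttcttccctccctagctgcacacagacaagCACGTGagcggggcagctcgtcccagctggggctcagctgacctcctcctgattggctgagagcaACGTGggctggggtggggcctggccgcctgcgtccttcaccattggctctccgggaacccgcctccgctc
Slc2a1: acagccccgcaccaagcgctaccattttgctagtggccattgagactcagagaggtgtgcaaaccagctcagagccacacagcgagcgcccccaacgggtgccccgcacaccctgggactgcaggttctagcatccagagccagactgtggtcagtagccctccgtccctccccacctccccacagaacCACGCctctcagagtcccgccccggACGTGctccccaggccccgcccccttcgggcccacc
Ldha: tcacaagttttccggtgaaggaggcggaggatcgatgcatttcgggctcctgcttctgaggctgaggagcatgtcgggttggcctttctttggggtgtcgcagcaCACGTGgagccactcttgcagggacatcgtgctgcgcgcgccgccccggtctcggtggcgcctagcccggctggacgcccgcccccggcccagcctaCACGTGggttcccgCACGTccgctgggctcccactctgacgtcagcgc
Pfkp: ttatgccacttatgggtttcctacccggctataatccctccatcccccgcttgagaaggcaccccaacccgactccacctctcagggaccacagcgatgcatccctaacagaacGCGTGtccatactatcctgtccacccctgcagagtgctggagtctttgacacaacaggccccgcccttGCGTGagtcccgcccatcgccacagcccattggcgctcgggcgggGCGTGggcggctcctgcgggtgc
Vegfa: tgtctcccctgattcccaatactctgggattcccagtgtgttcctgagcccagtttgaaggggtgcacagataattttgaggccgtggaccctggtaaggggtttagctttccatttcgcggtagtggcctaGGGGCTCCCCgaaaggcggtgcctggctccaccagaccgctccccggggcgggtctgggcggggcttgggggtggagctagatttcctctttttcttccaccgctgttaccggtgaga

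All 9 genes had a RefSeq promoter entry, with 14 start sites among them. At the most upstream start, ACGTG on either strand was present in 6 of the 9 windows, namely those of Hif1a, Slc2a1, Hk2, Pfkfb3, Ldha and Pgk1, and in 16.6% of all 32851 promoter windows of that length. GCGTG was present in 3 of 9, those of Slc2a1, Pfkp and Eno1, and in 28.2% of all windows. The window of Vegfa held neither, and its second start held both cores. CACGTG, which contains ACGTG on both strands and was counted as 1 site, was present in Hif1a and Ldha and in 6.02% of all windows. The NF-κB consensus was matched only in Vegfa, 118 bases before the start, and in 3.9% of all windows. In Slc2a1 the ACGTG began 36 bases before the start. In Ldha 3 ACGTG sites began 145, 48 and 34 bases before it. A match of letters is a description of the window and not a site of binding.

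Each array holds 62976 spots. Of the 25 arrays used, 24 had between 43.1% and 55% of probes well above background, and naïve replicate 3 had 74.9%. All groups but acute LPS were hybridised on 3 shared slides, 1 per replicate number, while the 3 acute LPS arrays lay on 3 other slides scanned on other days. Their file headers also name another version of the array grid, with another gene name for 6517 probes. The probes themselves were the same, as were the gene names of those of the 9 genes. Acute LPS therefore cannot be told apart from slide, scan day or grid version. All 7 macrophage markers examined (Emr1, Cd68, Csf1r, Itgam, Lyz2, Fcgr1 and Mertk) were above background on all 25 arrays. Of the neutrophil markers, Elane lay between 11.08 and 12.73 on all 25. The mean log2 level of 6 such markers (Elane, Mpo, Ly6g, Camp, Ltf and Ngp) was 9.09 to 12.05 on the 15 arrays of replicates 1 and 2 outside acute LPS. It was 5.25 to 6.24 on the 7 arrays of replicate 3 and 5.12 to 5.58 on the acute LPS arrays, where Ltf lay between 2.51 and 3.29. On these bulk samples, fewer cells of a type and less RNA per cell cannot be told apart. Dendritic, T cell, B cell, erythroid and fibroblast markers had list means of at most 7.35, but single markers lay higher. The T cell markers Cd3e (9.1 to 10.79) and Lck (4.48 to 10.67) were above background on all 25 arrays. So were the B cell markers Cd79b (6.51 to 10.29) and Cd79a (5.29 to 7.03) and the fibroblast marker Dcn (3.7 to 9.35). Col1a2 was above it on 23, and the other T cell, B cell and fibroblast markers on at most 5. Zbtb46, a dendritic cell marker, was highest with acute LPS, at 9.57 to 10.67 against 3.11 to 8.23 elsewhere, while Flt3, the other dendritic cell marker, was 3.36 to 4.03 with acute LPS and 2.81 to 6.02 elsewhere.

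The level of each gene on each array is shown in the plot of signals by group.

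**Figure D1:**
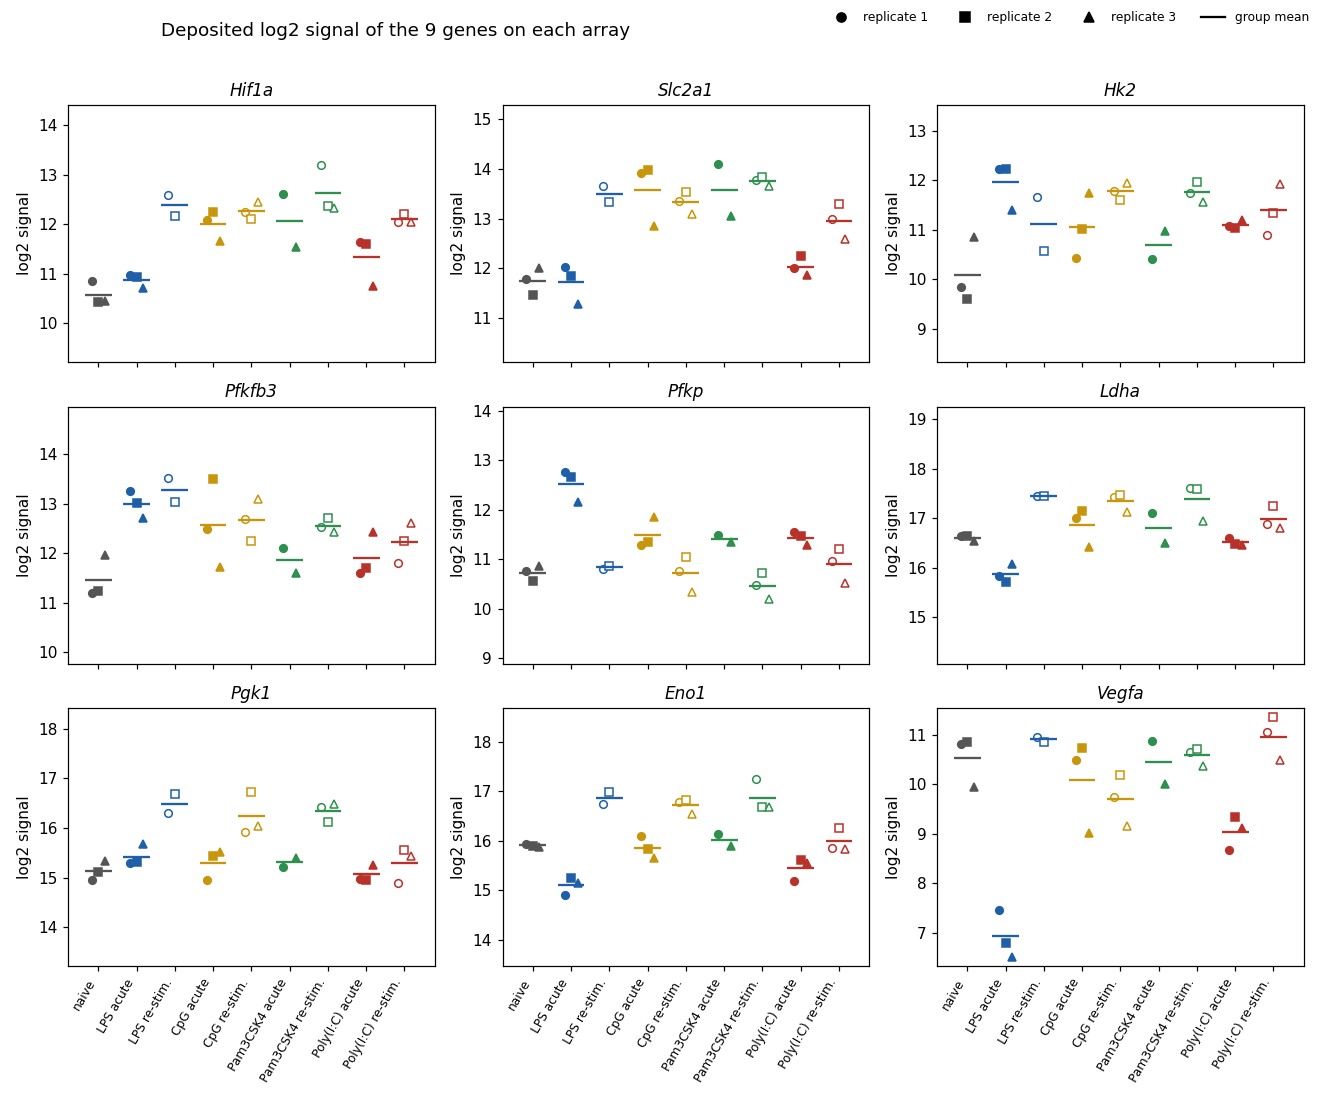
Deposited log2 signal (vertical axis, each panel spanning the same number of log2 units) of the 9 genes on the 25 arrays, by group along the horizontal axis. Filled symbols are naïve and acute arrays, open symbols are re-stimulated arrays, symbol shapes are replicate numbers and bars are group means. Hif1a and Slc2a1 were lowest in naïve cells and with acute LPS, Pfkp was highest with acute LPS, and Vegfa was lowest with acute LPS, between 6.51 and 7.47.

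A gene was called in a comparison of 2 groups when its limma p, adjusted over all probes tested, was under 0.05 and the change was at least 1.5-fold. All 9 genes were tested in all 12 such comparisons. Groups that do not overlap are named below. Over these comparisons 12% to 32% of all probes tested were higher without overlap, and 11.9% to 30.7% were lower without it. With acute LPS against naïve cells, Hk2, Pfkfb3 and Pfkp were called higher and Ldha, Eno1 and Vegfa lower. This is 3 of 9 each way, against 13.2% of all probes called higher and 13.2% lower. With acute CpG, Hif1a and Slc2a1 were called higher and none lower, against 3.09% of all probes higher and 2.63% lower. With acute Poly(I:C) limma's two-group fit called 0 of 9, against 3.8% higher and 2.23% lower. There 5 of the 9 and 6335 of the 28426 probes tested had an unadjusted p under 0.05. With acute Pam3CSK4, where 2 arrays stood against 3, that fit called 0 of 9 and 0% of all probes. In this comparison 3 of the 9 and 3458 of the 27843 probes tested had an unadjusted p under 0.05. The smallest adjusted p of any probe was 0.288. The median log2 change of the 9 genes was 0.29 with acute LPS, 0.77 with CpG, 0.39 with Pam3CSK4 and 0.28 with Poly(I:C), while the median of all probes lay between -0.10 and 0.01.

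A second fit took the spread from all 9 groups at once and left every log2 change as it was. It called Pfkfb3 and Pfkp as well with acute CpG, making 4 of 9 higher against 7.78% of all probes. With acute Pam3CSK4 it called Hif1a and Slc2a1 higher, against 3.13% of all probes. With acute Poly(I:C) it called Pfkp higher and Vegfa lower, against 14.6% of all probes called either way.

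After re-stimulation more of the genes stood above naïve cells, and none was called below them. Hif1a and Slc2a1 were called higher with all 4 ligands. With LPS, Pfkfb3 and Pgk1 joined them, giving 4 of 9 against 3.27% of all probes higher and 2.39% lower. With CpG the 6 genes were Hif1a, Slc2a1, Hk2, Ldha, Pgk1 and Eno1, against 6.65% higher and 6.45% lower. With Pam3CSK4 the 3 genes were Hif1a, Slc2a1 and Pgk1, against 2.61% higher and 2.74% lower. With Poly(I:C) Hif1a and Slc2a1 were the only 2, against 4.79% higher and 4.23% lower. The 4 comparisons share the 3 naïve arrays. The median change of the 9 genes was 1.02 with LPS, 1.10 with CpG, 1.09 with Pam3CSK4 and 0.43 with Poly(I:C), and that of all probes was between -0.04 and 0.03. The fit of all 9 groups called 6, 7, 7 and 3 of the 9 genes higher in this order of ligands, against 9.08%, 10.4%, 8.5% and 10% of all probes.

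Against acute cells of the same ligand, re-stimulated LPS cells were called higher for Hif1a, Slc2a1, Ldha, Pgk1, Eno1 and Vegfa and lower for Pfkp. These are 6 and 1 of 9, against 17.2% of all probes higher and 17% lower, and they rest on the acute LPS arrays of the other slides. With Poly(I:C) Vegfa was called higher and no gene lower, against 2.31% and 2.62% of all probes, and the fit of all groups added Slc2a1, against 7.62% higher. None of the 9 was called with CpG in limma's two-group fit, against 1.85% higher and 1.71% lower. There 3 of the 9 and 5572 of the 25739 probes tested had an unadjusted p under 0.05. With Pam3CSK4 that fit called none of the 9 and 0% of all probes, while 5 of the 9 and 3461 of the 25430 probes tested had an unadjusted p under 0.05. The fit of all groups called the same 3 genes with both of these ligands, Pgk1 and Eno1 higher and Pfkp lower, against 7.24% of all probes either way with CpG and 3.35% with Pam3CSK4. The median change of the 9 genes was 1.51 with LPS and between 0.27 and 0.58 with the others.

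**Figure D2:**
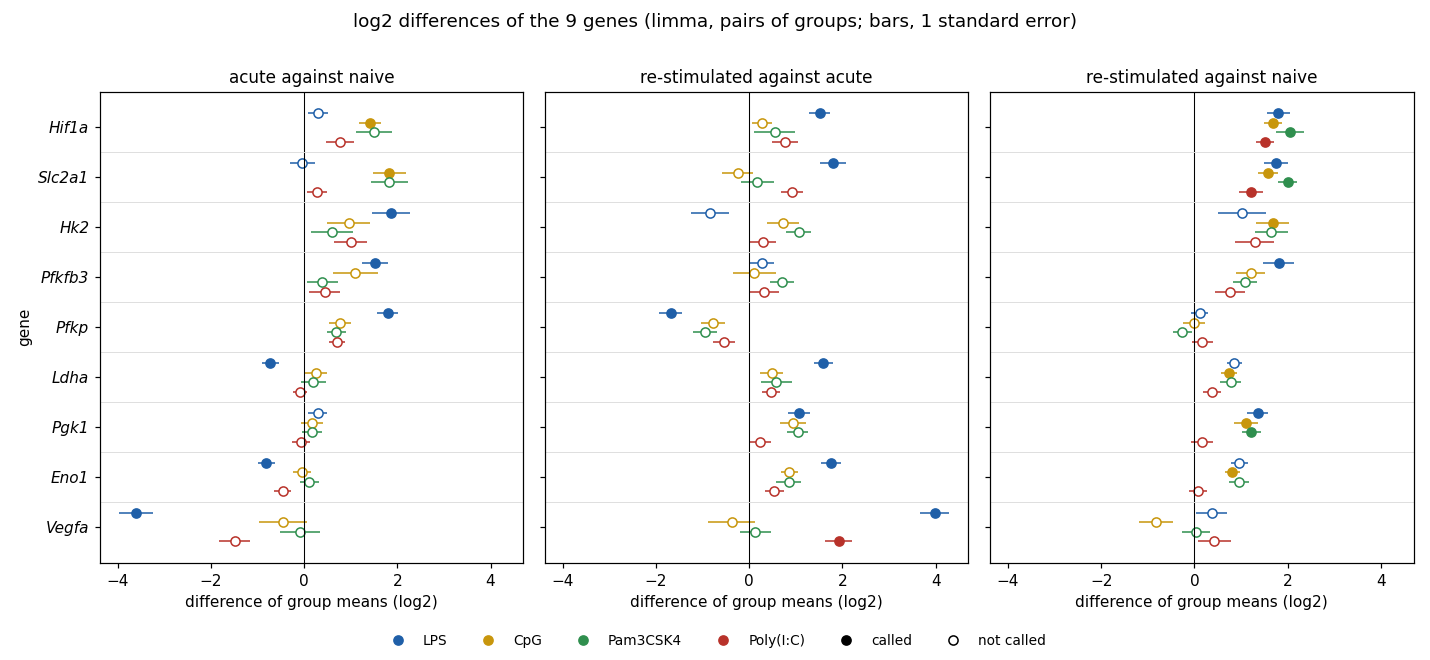
Difference of group means on the log2 scale (horizontal axis) for the 9 genes (vertical axis) in the 12 comparisons of 2 groups, coloured by ligand. Bars are 1 standard error of limma's two-group fit and filled points are called. Vegfa spans the widest range, from -3.61 with acute LPS against naïve cells to 3.98 on LPS re-stimulation against acute LPS, and no point left of 0 is filled against naïve cells after re-stimulation.

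Hif1a, the regulator itself, stood at log2 levels of 10.86, 10.43 and 10.45 in the naïve cultures. After re-stimulation it was 12.60 and 12.16 with LPS, 12.24, 12.11 and 12.44 with CpG, 13.19, 12.37 and 12.32 with Pam3CSK4 and 12.05, 12.21 and 12.04 with Poly(I:C). Every re-stimulated culture was above every naïve culture. Among the ligands, all Pam3CSK4 cultures were above all Poly(I:C) cultures and the other pairs overlapped. The rise over naïve cells was 1.80 ± 0.25 (SE) with LPS (adjusted p = 0.0316), 1.69 ± 0.20 with CpG (0.00928), 2.05 ± 0.30 with Pam3CSK4 (0.0276) and 1.52 ± 0.19 with Poly(I:C) (0.0133). These log2 values are 3.48-fold, 3.23-fold, 4.14-fold and 2.87-fold. Within single slides the rise lay between 1.20 and 2.33.

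The acute level of Hif1a was called above naïve cells with CpG. It was 12.08, 12.25 and 11.66 with acute CpG, above all naïve cultures, a rise of 1.41 ± 0.24 (adjusted p = 0.0309, and 0.0601 with the replicate number as a block). With acute Pam3CSK4 it was 12.61 and 11.54, a difference of 1.5 ± 0.38 with an adjusted p of 0.292, which became 0.00884 in the fit of all groups. With acute Poly(I:C) it was 11.65, 11.60 and 10.76, and the last of these lay below the highest naïve culture. With acute LPS it was 10.98, 10.93 and 10.71 and overlapped naïve cells, a difference of 0.30 ± 0.21 (adjusted p = 0.323). Compared directly in the fit of all groups, acute CpG and Pam3CSK4 were 0.65 and 0.74 above acute Poly(I:C), which was not called (adjusted p = 0.251 and 0.206). Re-stimulation with LPS then gave 1.51 ± 0.23 over acute LPS (adjusted p = 0.00483), with groups that did not overlap. Between those groups the neutrophil list also differed, at 9.81 to 10.21 after re-stimulation against 5.12 to 5.58, and its part in the difference was not tested.

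Slc2a1, the glucose transporter, followed Hif1a closely. Its probe lies at chr4:118809864-118809923 in mm9, as the array files give it, on the chromosome of the gene. The naïve cultures stood at 11.78, 11.45 and 12.01. Acute CpG gave 13.92, 13.97 and 12.85 and acute Pam3CSK4 14.11 and 13.05, all above the naïve cultures. Acute LPS, at 12.02, 11.84 and 11.28, and acute Poly(I:C), at 12, 12.24 and 11.85, overlapped them. The change was 1.83 ± 0.36 with CpG (3.56-fold, adjusted p = 0.0432, and 0.092 with the replicate block) and 1.83 ± 0.39 with Pam3CSK4 (adjusted p = 0.288, and 0.00325 in the fit of all groups). It was -0.04 ± 0.27 with LPS (adjusted p = 0.931) and 0.28 ± 0.22 with Poly(I:C) (0.51).

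The ligands were compared directly for their acute effect and for their change on re-stimulation, in 1 limma fit of all groups and over 3 pairs of the ligands that share slides. Slc2a1 was 1.55 ± 0.30 higher with acute CpG than with acute Poly(I:C) (2.93-fold, adjusted p = 0.00582) and 1.55 ± 0.34 higher with acute Pam3CSK4 than with Poly(I:C) (adjusted p = 0.00688). It was the only 1 of the 9 genes called in each, against 1.87% and 2.97% of all probes called higher. The CpG difference was called without each array in turn, and the Pam3CSK4 difference was not called without acute Pam3CSK4 replicate 1, which leaves 1 array in that group, or with median scaling. Acute CpG and Pam3CSK4 differed by 0.00 ± 0.34 for Slc2a1, and none of the 9 genes was called between them or had an unadjusted p under 0.05, against 0.0433% of all probes called either way. With that error the value does not show that these ligands act alike. No gene was called in the change on re-stimulation between CpG and Poly(I:C), CpG and Pam3CSK4, or Pam3CSK4 and Poly(I:C), where 0.0396%, 0.00378% and 0.119% of all probes were. In these 3 comparisons 3, 0 and 2 of the 9 genes had an unadjusted p under 0.05, and so had 3011, 223 and 3264 of all probes.

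After re-stimulation Slc2a1 stood at 13.66 and 13.33 with LPS, 13.35, 13.53 and 13.10 with CpG, 13.77, 13.84 and 13.65 with Pam3CSK4, and 12.99, 13.30 and 12.59 with Poly(I:C). All of these were above the 3 naïve cultures. The differences from naïve cells were 1.75 ± 0.25 (adjusted p = 0.0332), 1.58 ± 0.22 (0.0133), 2.00 ± 0.21 (0.0146) and 1.21 ± 0.26 (0.0437) in this order, between 2.31-fold and 4.00-fold. From acute cells it rose by 1.79 ± 0.28 with LPS (adjusted p = 0.00558), whereas with CpG and Pam3CSK4 the differences were -0.25 ± 0.33 and 0.17 ± 0.35 and the groups overlapped. With Poly(I:C) it was 0.92 ± 0.24 higher (adjusted p = 0.0753, and 0.0489 with the replicate block), with groups that did not overlap. Such a rise without overlap was seen for 17% of all probes tested.

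Most of these calls for Hif1a and Slc2a1 were lost when 1 or another array was left out, which also leaves fewer arrays in the fit. Both acute CpG calls were lost without naïve replicate 1 or 2 or CpG replicate 1 or 2, at adjusted p-values of 0.0814 to 0.127 for Hif1a and 0.129 to 0.155 for Slc2a1. Against naïve cells, the re-stimulated LPS calls were lost without replicate 1 or 2 of either group (0.0872 to 0.278 and 0.102 to 0.278), and so were those of Slc2a1 with Poly(I:C) (0.12 to 0.142). The Pam3CSK4 call of Slc2a1 was lost without replicate 1 or 2 of either group (0.0647 to 0.0753). That of Hif1a was lost without those or Pam3CSK4 replicate 3 (0.0527 to 0.115). For Hif1a with Poly(I:C), naïve replicate 2 and ligand replicates 1 and 2 mattered (0.0588 to 0.0634), and for Slc2a1 with CpG, ligand replicates 1 and 2 (0.0572 to 0.0592). The CpG call of Hif1a against naïve cells and both LPS calls against acute LPS held without each array in turn. With the replicate block the adjusted p was 0.0546 and 0.0564 for the 2 genes with Pam3CSK4 and 0.1 for Slc2a1 with Poly(I:C), and the other re-stimulated calls of the pair against naïve cells stayed under 0.05.

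Hk2, the first enzyme of the pathway, rose with acute LPS. The naïve cultures were at 9.84, 9.61 and 10.85 and the acute LPS cultures at 12.24, 12.24 and 11.41, so that the groups did not overlap. The difference was 1.87 ± 0.41 (3.66-fold, adjusted p = 0.0196). It was lost without replicate 1 or 2 of either group (0.0582 to 0.0748). Naïve replicate 3, the array with 74.9% of probes above background, was the highest naïve culture, and replicate 3 was the highest of its group for Hk2 in 6 of the 7 groups on the third shared slide. After re-stimulation Hk2 was 11.78, 11.61 and 11.95 with CpG, 1.68 ± 0.35 over naïve cells (adjusted p = 0.0321), which was lost without replicate 1 or 2 of either group or CpG replicate 3 (0.0881 to 0.101). With Pam3CSK4 it was 11.74, 11.96 and 11.57, a difference of 1.65 ± 0.36 with an adjusted p of 0.0548. Acute CpG, at 10.43, 11.01 and 11.75, and acute Pam3CSK4, at 10.41 and 10.97, overlapped naïve cells.

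With Poly(I:C) and re-stimulated LPS, Hk2 was not called in the two-group fit. Acute Poly(I:C), at 11.07, 11.03 and 11.21, lay above all naïve cultures, a difference of 1.0 ± 0.35 (adjusted p = 0.163). Re-stimulated Poly(I:C), at 10.90, 11.35 and 11.93, lay above them too, a difference of 1.29 ± 0.42 (adjusted p = 0.113, and 0.0182 in the fit of all groups). Among all probes tested, 12% with acute and 16.1% with re-stimulated Poly(I:C) were above naïve cells without overlap. Re-stimulated LPS, at 11.66 and 10.58, overlapped naïve cells, and its difference of 1.02 ± 0.52 had an adjusted p of 0.29, and of 0.0343 with the replicate block.

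Pfkfb3, which makes the activator of phosphofructokinase, stood at 11.20, 11.24 and 11.96 in naïve cells and at 13.25, 13.02 and 12.72 with acute LPS. The groups did not overlap, and the rise of 1.53 ± 0.28 (2.89-fold, adjusted p = 0.0112) was called without each array in turn. On LPS re-stimulation it stayed at 13.52 and 13.04, which was 1.81 ± 0.33 over naïve cells (adjusted p = 0.049) and 0.28 ± 0.26 over acute LPS (0.427). The call against naïve cells was lost without replicate 1 or 2 of either group (0.133 to 0.295). Acute CpG spread widest, at 12.49, 13.49 and 11.73, and its difference of 1.10 ± 0.48 had an adjusted p of 0.243. After CpG re-stimulation it was 12.69, 12.25 and 13.09, or 1.21 ± 0.31 over naïve cells (adjusted p = 0.0547, and 0.041 with the replicate block). Acute Pam3CSK4 and Poly(I:C) differed from naïve cells by 0.39 ± 0.34 and 0.44 ± 0.33 (adjusted p = 0.703 and 0.494). After re-stimulation the difference was 1.09 ± 0.26 with Pam3CSK4 (0.068, and 0.0451 in the fit of all groups) and 0.76 ± 0.32 with Poly(I:C) (0.186). The second probe of Pfkfb3 gave 1.15 ± 0.40 with acute LPS and was not called (adjusted p = 0.0765). After LPS re-stimulation it gave 1.80 ± 0.33 over naïve cells and was not called either (adjusted p = 0.051).

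Pfkp, a phosphofructokinase isozyme, rose with acute LPS and was lower again after the second stimulation. Naïve cells stood at 10.77, 10.55 and 10.86. Acute LPS gave 12.76, 12.66 and 12.15, a rise of 1.79 ± 0.23 (3.46-fold, adjusted p = 0.00367) that was called without each array in turn. Re-stimulated LPS gave 10.81 and 10.86, a change of -1.69 ± 0.25 from acute LPS that was called (adjusted p = 0.00459). It differed from naïve cells by 0.11 ± 0.19 (adjusted p = 0.754).

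With the other ligands no change of this Pfkp probe was called in the two-group fit. Acute CpG gave 11.29, 11.34 and 11.86, acute Pam3CSK4 11.49 and 11.34, and acute Poly(I:C) 11.55, 11.47 and 11.29. All 8 of these arrays were above the 3 naïve cultures, as were 12.9%, 16% and 12% of all probes tested in this order. The Pfkp differences of 0.77 ± 0.23, 0.69 ± 0.21 and 0.71 ± 0.17 had adjusted p-values of 0.11, 0.332 and 0.0737. Those of CpG and Poly(I:C) were 0.0252 and 0.0418 in the fit of all groups. Re-stimulated cells were below acute cells with every ligand, with no overlap in any of them. Among all probes tested, 30.7% were lower without overlap with LPS, 11.9% with CpG, 15.6% with Pam3CSK4 and 15.1% with Poly(I:C). Against naïve cells, Pfkp of re-stimulated cells differed by between -0.26 and 0.17. The second probe of Pfkp did not follow the main probe throughout. With acute LPS it gave 1.28 ± 0.50 and was not called (adjusted p = 0.104), and with acute CpG it was called higher (1.24 ± 0.24, 0.0401). On LPS re-stimulation against acute LPS it gave -0.58 ± 0.54 (adjusted p = 0.435) where the main probe was called. After re-stimulation it stood above naïve cells by 0.70 with LPS, 0.88 with CpG, 0.79 with Pam3CSK4 and 0.50 with Poly(I:C), none of them called (adjusted p of 0.0559 to 0.215).

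Ldha, at the end of the pathway, was at 16.63, 16.64 and 16.53 in naïve cells and at 15.83, 15.70 and 16.07 with acute LPS. The difference was -0.73 ± 0.18 (1.66-fold lower, adjusted p = 0.0313). Re-stimulated LPS gave 17.45 on both arrays, 1.59 ± 0.21 above acute LPS (3.01-fold, adjusted p = 0.00309) and 0.86 ± 0.17 above naïve cells (0.0584, and 0.0189 in the fit of all groups). Re-stimulated CpG gave 17.43, 17.46 and 17.12, which was 0.74 ± 0.17 above naïve cells (adjusted p = 0.0416, and 0.0714 with the replicate block). The 2 other probes of Ldha were called in the same direction in all 3 LPS comparisons, with 2.53 and 2.49 on re-stimulation against acute LPS and 1.58 and 1.54 against naïve cells.

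Pgk1 and Eno1, the enzymes between, were measured by probes that the array files place away from their genes. The Pgk1 probe is placed at chr3:57906830-57906894 in mm9 although the gene is on chromosome X, and the Eno1 probe at chr2:80678866-80678925 although the gene is on chromosome 4. Both may therefore read a near-identical copy, and their values are uncertain as measures of these genes. Pgk1 was 14.95, 15.11 and 15.33 in naïve cells and 15.29, 15.31 and 15.67 with acute LPS, a difference of 0.29 ± 0.21 (adjusted p = 0.334). After re-stimulation it was 16.30 and 16.68 with LPS, 15.92, 16.73 and 16.05 with CpG and 16.43, 16.13 and 16.49 with Pam3CSK4, all above naïve cells. These were rises of 1.36 ± 0.23 (adjusted p = 0.0434), 1.10 ± 0.26 (0.0458) and 1.22 ± 0.20 (0.0337). With Poly(I:C) it was 14.90, 15.55 and 15.43 and overlapped naïve cells.

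Eno1 was 15.94, 15.90 and 15.87 in naïve cells. Acute LPS gave 14.90, 15.24 and 15.15, a difference of -0.81 ± 0.18 (1.75-fold lower, adjusted p = 0.0212). Re-stimulated LPS gave 16.75 and 16.98, 1.76 ± 0.21 above acute LPS (3.39-fold, adjusted p = 0.00237), and re-stimulated CpG 16.78, 16.82 and 16.54, 0.81 ± 0.16 above naïve cells (0.0286). With Pam3CSK4 it was 17.24, 16.68 and 16.67, or 0.96 ± 0.22 above naïve cells (adjusted p = 0.0612, and 0.0017 in the fit of all groups). With Poly(I:C) it was 15.86, 16.26 and 15.83 and overlapped them.

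Calls of these 3 lower enzymes depended on arrays and scaling. With acute LPS, Ldha and Eno1 were lost without replicate 1 or 2 of either group (0.0875 to 0.117 and 0.0592 to 0.078). Scaling arrays to a common median instead of a common distribution moved the median of all probes by 0.09 to 0.80, over 0.1 in 10 of the 12 comparisons. In this one it moved by 0.28, and Ldha and Eno1 differed from naïve cells by -0.20 and -0.24 (adjusted p = 0.92 and 0.904). The CpG calls of all 3 against naïve cells were lost without replicate 1 or 2 of either group or CpG replicate 3 (0.0652 to 0.138 for Ldha, 0.083 to 0.127 for Pgk1 and 0.0592 to 0.105 for Eno1). The Pam3CSK4 call of Pgk1 was lost in the same way (0.0678 to 0.135), and its LPS call without replicate 1 or 2 of either group (0.125 to 0.313). Against acute LPS, the call of Pgk1 was lost without replicate 2 of either group (0.0534 to 0.105). With the replicate block the adjusted p of Pgk1 was 0.071 with CpG and 0.0669 with Pam3CSK4, and that of Eno1 with CpG was 0.0624.

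Vegfa had the largest range of group means of the 9 genes, 4.03 on the log2 scale against 1.43 to 2.06 for the others. That order rests on acute LPS, and without it the range was 1.92 for Vegfa, 2.05 for Hif1a and 2.00 for Slc2a1. Its probe lies at chr17:46154387-46154446 in mm9. Naïve cells stood at 10.81, 10.85 and 9.94 and acute LPS cells at 7.47, 6.80 and 6.51. The fall of 3.61 on the log2 scale (SE 0.36) was 12.2-fold (adjusted p = 0.00175). Re-stimulated LPS cells stood at 10.96 and 10.85, which was 3.98 ± 0.31 over acute LPS (15.8-fold, adjusted p = 0.000704) and 0.37 ± 0.34 over naïve cells (0.541). Both calls held without each array in turn, and both rest on the acute LPS arrays of the other slides. The second probe of Vegfa gave -2.55 ± 0.28 (adjusted p = 0.0024) and 3.15 ± 0.21 (0.000512).

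On the shared slides Vegfa was called in the two-group fit with Poly(I:C) alone. Acute Poly(I:C) cells stood at 8.67, 9.34 and 9.11, below every naïve culture, a difference of -1.49 ± 0.33 (adjusted p = 0.0561, and 0.0168 in the fit of all groups). Within the 3 slides it lay between -2.14 and -0.82. With acute Poly(I:C) 17.3% of all probes tested were below naïve cells without overlap. Re-stimulated cells stood at 11.05, 11.35 and 10.48, which was 1.92 ± 0.29 over acute cells (3.78-fold, adjusted p = 0.0299, and 0.0399 with the replicate block). Within the slides that rise lay between 1.37 and 2.38. It was lost without replicate 1 or 2 of either group (0.0989 to 0.113). The second probe gave 1.80 and was called as well (adjusted p = 0.0269).

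With CpG and Pam3CSK4 the levels of Vegfa overlapped those of naïve cells over the 3 slides together. Acute CpG gave 10.49, 10.73 and 9.02, and re-stimulated CpG 9.75, 10.19 and 9.16. Within each slide re-stimulated CpG was below the naïve culture, by differences of -1.06, -0.66 and -0.78. Their mean of -0.83 was not called (adjusted p = 0.186, and 0.0664 with the replicate block), was called without naïve replicate 3 (0.0453), and was 0.18 with median scaling. Acute Pam3CSK4 gave 10.88 and 10.00, and re-stimulated Pam3CSK4 10.65, 10.72 and 10.37. The change on re-stimulation with CpG minus that with Poly(I:C) was -2.30 ± 0.58, with an adjusted p of 0.167, and 0.0405 when arrays of a slide were treated as correlated. Replicate 3 was the lowest of its group for Vegfa in 6 of the 7 groups of the third shared slide, for Ldha in 7 of 7 and for Slc2a1 in 6 of 7. That slide also had the low neutrophil markers, whose part in these levels was not tested.

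Without the third shared slide, an alternative chosen after seeing the data, the fit of all groups turned the sign of 8 changes of the 9 genes, none of them called. Among them Slc2a1 went from 0.17 to -0.30 on Pam3CSK4 re-stimulation against acute cells and from -0.04 to 0.10 with acute LPS. Slc2a1 was 2.33 over naïve cells with acute CpG (adjusted p = 3.77e-05) and 2.49 with acute Pam3CSK4 (0.000199), and the values of Hif1a were 1.52 (0.00135) and 1.96 (0.00165). Vegfa differed from naïve cells by -3.91 with acute LPS (6.91e-07) and by -1.82 with acute Poly(I:C) (0.000931), and after re-stimulation with Poly(I:C) it was 2.19 over acute cells (0.000368).

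Over the 9 group means the 9 genes fell into different patterns, as the plot of their correlations shows. Hif1a and Slc2a1 had a Pearson's r of 0.94, Ldha and Eno1 of 0.96, and Hk2 and Pfkfb3 of 0.71. Pfkp ran opposite to Ldha (-0.85), Eno1 (-0.83) and Vegfa (-0.84). Of the 36 pairs 16 were above 0.5 and 8 below 0. The 9 points share slides and the naïve arrays, and acute LPS lies at the end of the range of several genes. Without it, over 8 groups, Hif1a with Slc2a1 was 0.92 and Ldha with Eno1 0.96, Pfkp with Vegfa fell to -0.45, and Hif1a with Hk2 went from 0.38 to 0.80.

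**Figure D3:**
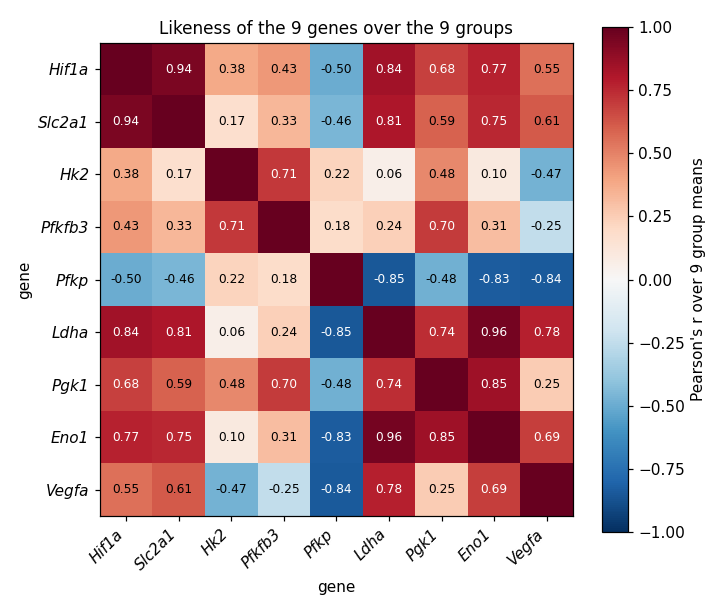
Pearson's r between each pair of the 9 genes over the 9 group means, with genes on both axes and colour from -1 (blue) to 1 (red). Hif1a with Slc2a1 and Ldha with Eno1 are the 2 highest pairs, at 0.94 and 0.96, and the row of Pfkp is below 0 except with Hk2 (0.22) and Pfkfb3 (0.18).

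Among about 11284 probes with a range of at least 1 log2 unit over the groups, the named genes most alike in pattern were found for each of the 9. For Hif1a they were 1700001L05Rik (r = 0.985), Rprd2 (0.981) and Ube2j1 (0.981). For Slc2a1 they were Wtap (0.986), Fosl1 (0.967) and Polr2d (0.961). Vegfa was most like Zfp282 (0.987), Pfkp like Usp31 (0.984), Hk2 like Luzp1 (0.957) and Pfkfb3 like Cr2 (0.971). Ldha was most like AA684185 (0.994), Pgk1 like Gm5537 (0.995) and Eno1 like Slc36a4 (0.993). After Slc36a4, Eno1 was most like Gm6981 (0.992) and Gys1 (0.989), glycogen synthase of muscle type and a listed HIF-1 target. These values are the largest for each gene among about 11284 probes, over the 9 group means with acute LPS included. Their height is therefore in part a product of the search.

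Of 21 other glycolysis genes, all tested, 7 were called lower and 1 higher with acute LPS, and 13 higher and 2 lower on LPS re-stimulation against acute LPS. Of all probes 13.2% were called each way with acute LPS, and 17.2% higher and 17% lower on LPS re-stimulation. Against naïve cells, 4 were called higher after re-stimulation with LPS, 4 with CpG, 2 with Pam3CSK4 and 1 with Poly(I:C), and 0, 1, 0 and 2 lower. In these comparisons 3.27%, 6.65%, 2.61% and 4.79% of all probes were higher and 2.39%, 6.45%, 2.74% and 4.23% lower. The median change of the list was -0.60 with acute LPS and 0.78 on LPS re-stimulation, against -0.01 and -0.02 for all probes. Slc16a3, the lactate exporter MCT4, changed most. Its level was 12.17 to 12.95 in naïve cells, 11.16 to 11.56 with acute LPS and 15.84 to 15.86 after LPS re-stimulation. These were -1.35 ± 0.28 (adjusted p = 0.0157) and, against acute LPS, 4.52 ± 0.21 (0.000213). Against naïve cells Slc16a3 was called after re-stimulation with LPS (3.16), CpG (2.21) and Pam3CSK4 (2.12).

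Slc2a6, a sugar transporter of the GLUT family, was the only gene of this list of other glycolysis genes called higher with acute LPS, CpG or Poly(I:C). It changed by 2.99 with acute LPS, 2.66 with acute CpG and 2.65 with acute Poly(I:C), each called. Re-stimulated cells were also called above naïve cells, by 3.32 with Poly(I:C), 2.32 with LPS and 1.38 with CpG, and LPS re-stimulation differed from acute LPS by -0.67 and was called. Pfkl, the liver-type phosphofructokinase, was called over naïve cells after re-stimulation with LPS (1.95), CpG (1.68) and Pam3CSK4 (1.77), and over acute LPS (2.55). Pfkfb4, a relative of Pfkfb3, changed by -2.28 with acute LPS, where Pfkfb3 was higher, and by -1.17 with acute CpG, both called. Pfkfb2 was at least 5.13-fold lower with acute LPS, where it was not well above background on any array (adjusted p = 0.0033). Aldoc, aldolase C, was called lower after re-stimulation with Poly(I:C), at -1.79 against naïve cells and -1.58 against acute cells.

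Among 8 genes that control HIF, 2 were called lower with acute LPS and 3 higher on LPS re-stimulation, against 13.2% of all probes lower and 17.2% higher. Egln3, a prolyl hydroxylase that marks HIF-1α for destruction and is itself a HIF target, was 5.53 to 6.34 in naïve cells and not well above background on any acute LPS array. It was 8.99 and 9.82 after LPS re-stimulation, at least 55-fold over acute LPS (adjusted p = 0.000436). Against naïve cells it was called after re-stimulation with LPS (3.40 ± 0.38, adjusted p = 0.0235) and Pam3CSK4 (3.47 ± 0.47, 0.0248), and with CpG the change of 2.40 ± 0.72 had an adjusted p of 0.0802. Egln1 fell by 1.88 on the log2 scale with acute LPS (adjusted p = 0.00995). Hif3a, with -1.56 ± 0.55 on LPS re-stimulation, was not called (adjusted p = 0.0714).

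Of 25 other HIF-1 targets 23 were tested, and Car12 and Mxi1 were not above background often enough. With acute LPS 4 were called higher and 6 lower, against 13.2% of all probes each way. With acute CpG 5 were higher and 0 lower, against 3.09% and 2.63%. On LPS re-stimulation against acute LPS 11 were higher and 4 lower, against 17.2% and 17%. Against naïve cells 8 were called higher after re-stimulation with LPS, 5 with CpG, 5 with Pam3CSK4 and 1 with Poly(I:C), and 1 was lower, with CpG, against the shares of all probes given above for the glycolysis genes. Edn1, endothelin 1, changed by 8.80 ± 0.25 with acute LPS and 8.78 ± 0.36 with acute CpG, from naïve levels of 2.17 to 2.81 that were above background on 1 of 3 arrays. The sizes therefore rest on naïve levels near background. Adm, adrenomedullin, changed by 4.25 and 5.57 in these comparisons, again with 1 of 3 naïve arrays above background, and all these changes were called. On LPS re-stimulation both genes were called lower than acute LPS, at -3.77 and -2.80 in this order. Ero1l rose by 1.30 with acute CpG and was called over naïve cells after re-stimulation with LPS, CpG and Pam3CSK4 (1.84, 1.61 and 1.35).

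Other targets named by the same rule were called lower with acute LPS and higher on LPS re-stimulation against it. Ankrd37, a HIF-induced ankyrin repeat gene, was -4.50 ± 0.25 with acute LPS (adjusted p = 0.000377) and -2.72 ± 0.23 with acute Poly(I:C) (0.00534), and 6.76 ± 0.24 higher on LPS re-stimulation against acute LPS (0.000154). Bnip3, which acts in mitophagy, gave -1.60 and 3.59, the demethylase Kdm3a -1.81 and 2.43, the mTORC1 inhibitor Ddit4 -2.27 and 3.27, and Gys1 -0.93 and 2.80 in the 2 LPS comparisons, each called. Angptl4 changed by -6.50 ± 1.25 with acute LPS (adjusted p = 0.0129), from naïve levels that spread from 7.88 to 12.62, and was above background on 2 of the 3 acute LPS arrays. Ak4, an adenylate kinase, was 3.54 over naïve cells with acute CpG and 3.83, 3.01 and 3.12 after re-stimulation with LPS, CpG and Pam3CSK4, each called. With the replicate number as a block, all calls of named genes in these lists after Pam3CSK4 re-stimulation against naïve cells were lost (adjusted p of 0.0546 to 0.0887). So were, with acute CpG, Pfkfb4 (0.0599), Ero1l (0.0575) and Ak4 (0.0779), with acute Poly(I:C), Slc2a6 (0.0972), after CpG re-stimulation, Ak4 (0.0544), and after Poly(I:C) re-stimulation, Slc2a6 (0.0532). Arrays were left out in turn for the 9 genes and not for these lists.

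The neighbouring routes were counted in the same way. Of 7 pentose phosphate genes 1 was called higher and 1 lower with acute LPS, Rpe (1.15) and Taldo1 (-1.06), against 13.2% of all probes each way, and none against naïve cells after re-stimulation with any ligand. On LPS re-stimulation against acute LPS, G6pdx (0.96) and Taldo1 (0.87) were called higher and Rpe lower (-1.0). In that comparison 17.2% of all probes were called higher and 17% lower. Of 11 genes of pyruvate entry into mitochondria 10 were tested, and Pdk4 was not above background often enough. With acute LPS 0 of the 10 were called higher and 1 lower, against 13.2% of all probes each way. On LPS re-stimulation against acute LPS 2 were higher and 0 lower, against 17.2% and 17%. After CpG re-stimulation against naïve cells 0 were higher and 1 lower, against 6.65% and 6.45%. Pdk2, a kinase that inhibits pyruvate dehydrogenase, was called lower with acute LPS (-2.32 ± 0.37, adjusted p = 0.00751) and after CpG re-stimulation against naïve cells (-1.34 ± 0.30, 0.0371, and 0.0725 with the replicate block). Pcx, pyruvate carboxylase, was called only on LPS re-stimulation against acute LPS (1.54 ± 0.42, adjusted p = 0.0329).

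**Figure D4:**
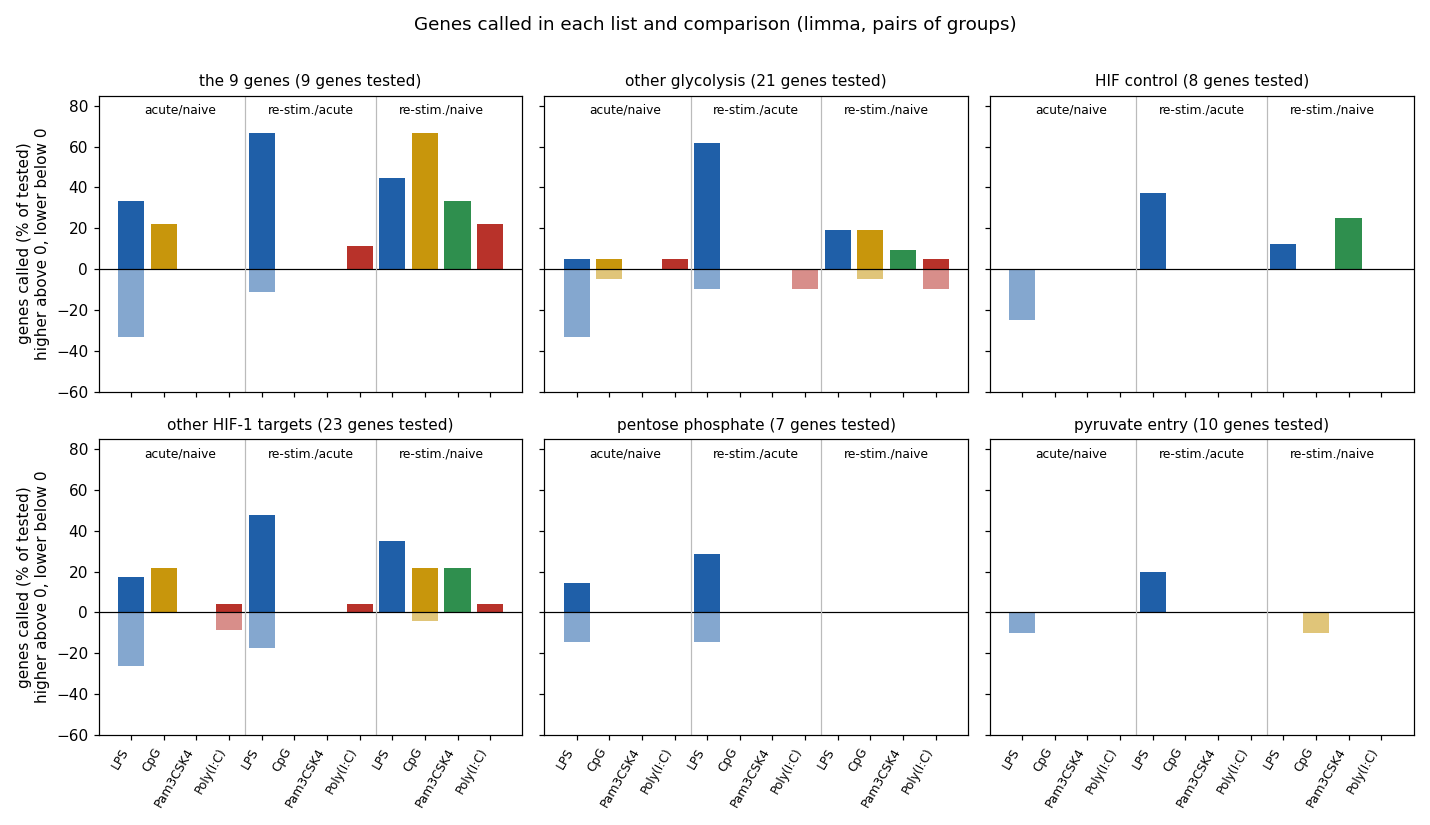
Share of the tested genes called (vertical axis, percent, higher above 0 and lower below) in each of the 12 comparisons of 2 groups (horizontal axis, by ligand) for the 9 genes and 5 lists of related genes. The tallest bars of the other glycolysis genes and of the other HIF-1 targets are those of LPS re-stimulation against acute LPS, with 13 of 21 and 11 of 23 genes higher.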

How the data were processed

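RNA of mouse macrophage cultures was measured on 27 single-colour Agilent arrays. The deposited log2 values were made by the authors with limma, using RMA background correction and quantile normalization, and cover 25 arrays. The deposited spot intensities come from Agilent Feature Extraction 10.7.3.1 per the file headers, which also place probes on mm9. The array number limits the precision.

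Groups were taken from the labels. Pairs of groups were fitted with limma 3.58.1 in R 4.3.3 (lmFit and eBayes). Probes entered when the scanner software marked 2 or more arrays of 1 of the groups as well above background, and p-values were adjusted over them by Benjamini-Hochberg. Calls needed 1.5-fold or more besides an adjusted p below 0.05. Ligands were compared as contrasts in 1 fit of all 9 groups. Values after ± are standard errors of the fit. Values redone from the intensities differed from the deposited ones by a median of 0.0355.

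Each gene was read from its probe with the highest mean, and pathway genes were named when called in at least 3 comparisons or among the 2 largest changes of a list in each direction. One gene that this rule names is not reported here by name, though the list counts include it. The most alike genes were sought among probes whose group means spanned at least 1 log2 unit. The members and lists were chosen with earlier results of these data known. Replicate numbers matched slides outside acute LPS, and deviations of same-numbered arrays correlated by 0.12 to 0.48 in the 7 comparisons of 3 pairs on those slides, against 0.01 to 0.04 for acute LPS against naïve cells. The number therefore served as a block in an alternative fit, while the main fits used no block. Alternatives were other normalizations, no filter, all 27 arrays, mean over probes, 1 fit, slide or replicate as a block, and arrays left out in turn. The fits were tested on simulated arrays with independent noise and 3 arrays a group. That test therefore does not cover shared slides or groups of 2.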

Additional observations from a re-analysis of the deposited data

Results flagged for a closer look

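Slc2a1 differed between ligands in its acute level. It was 1.55 ± 0.30 (SE) higher on the log2 scale with acute CpG than with acute Poly(I:C) (limma, adjusted p = 0.00582), and each of the 3 CpG arrays was above the 3 Poly(I:C) arrays. It was 1.55 ± 0.34 higher with acute Pam3CSK4 than with acute Poly(I:C) (adjusted p = 0.00688), again with both Pam3CSK4 arrays above all of the 3. Both comparisons use the same Poly(I:C) arrays.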

How the results depend on the processing

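No called change of the 9 genes reversed under any alternative. With 2 or 3 arrays a group, calls near the threshold depended on the fit. The numbers of the 9 genes called are given as main count, then alternatives, and the cause of each move was not tested. Not every smaller move is listed. With median scaling, Ldha and Eno1 were not called with acute LPS against naïve cells (limma, adjusted p = 0.92 and 0.904). On LPS re-stimulation against acute LPS, Hif1a, Slc2a1 and Pfkp were not called in every alternative (highest adjusted p of 0.0528, 0.0635 and 0.0649).

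With median scaling the count went from 2 to 1 for acute CpG against naïve cells, 0 to 1 for CpG re-stimulation against acute CpG and 1 to 0 for acute Pam3CSK4 against Poly(I:C), and 12 uncalled changes turned sign. With normexp it became 1 for CpG re-stimulation against acute CpG, 2 for acute Pam3CSK4 against Poly(I:C), 6 in place of 3 for Pam3CSK4 re-stimulation against naïve cells, 2 in place of 0 for acute Poly(I:C) and 2 in place of 1 for Poly(I:C) re-stimulation against acute cells. Without the detection filter it was 0 for acute CpG, 2 in place of 6 for CpG re-stimulation, 0 in place of 4 for LPS re-stimulation, 1 for Pam3CSK4 re-stimulation and 1 in place of 2 for Poly(I:C) re-stimulation, all against naïve cells, and 0 for Poly(I:C) re-stimulation against acute cells. With all 27 arrays LPS re-stimulation against naïve cells gave 0.

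The fit of all 9 groups gave 4, 2 and 2 for acute CpG, Pam3CSK4 and Poly(I:C), 3, 3 and 2 for their re-stimulation against acute cells, and 7 for Pam3CSK4 re-stimulation against naïve cells. With the slide as a random block these were 5, 2 and 4, then 3, 3 and 3, then 7, with 7 for LPS re-stimulation against naïve cells, 2 for acute Pam3CSK4 against Poly(I:C) and 1 for the re-stimulation change of CpG against Poly(I:C). Without the third shared slide, chosen after seeing the data, they were 4, 2 and 4, then 2, 1 and 3, then 7, with 7 for LPS re-stimulation against naïve cells.

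With the replicate block the count was 0 for acute CpG, 3 in place of 6 for acute LPS, 7 for LPS, 0 for Pam3CSK4, 1 for Poly(I:C) and, in place of 6, 4 for CpG re-stimulation against naïve cells, and 2 for Poly(I:C) re-stimulation against acute cells. It was 2 for acute CpG and 2 for acute Pam3CSK4 against Poly(I:C), and 1 for the re-stimulation change of CpG against Poly(I:C). The block ended 12 calls of the 9 genes in the 12 comparisons and added 5. Those ended include Hk2, Ldha and Eno1 with acute LPS against naïve cells. These groups share no slide, so the block accounts for no slide there.

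Leaving out 1 array at a time gave 3 to 6 for acute LPS, 0 to 2 for acute CpG, 0 to 2 for acute Poly(I:C), 6 to 7 for LPS and 0 to 2 for Poly(I:C) re-stimulation against acute cells. Against naïve cells re-stimulation gave 0 to 6 with LPS, 1 to 8 with CpG, 0 to 5 with Pam3CSK4 and 0 to 3 with Poly(I:C). The ligand comparisons gave 1 to 2 for acute CpG and 0 to 1 for acute Pam3CSK4 against Poly(I:C), and 0 to 1 for the re-stimulation change of CpG against Poly(I:C). The other comparisons stayed at 0.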
